A study of Rattus norvegicus with 24 samples.

Results

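The 8 genes described here serve retinoid transport and metabolism in the rat testis: Rbp4, Stra6, Crabp1, Crabp2, Aldh1a1, Aldh1a2, Cyp26b1 and Rarb. Members were all probe sets whose annotated gene symbol was exactly 1 of these names. The rule found 13 probe sets of 31042 that are no manufacturer controls, for 8 genes of 14217 with a probe set of a single symbol. Stra6 had 5 probe sets, Cyp26b1 had 2 and each other gene had 1. For a gene with several, the probe set with the highest mean intensity over all arrays stands for the gene, and the others are given where they differ.

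RNA was measured on 24 single-colour arrays of whole testis from male Fisher 344 rats, with 4 arrays in each of 6 groups. Dams were gavaged daily from gestational day (GD) 12 to 20 with corn oil or with 50 mg/kg dibutyl phthalate (DBP), a plasticizer that impairs male reproductive development, in corn oil. GD20 oil testes came from dams 2, 3, 4 and 5, and GD20 DBP testes from dams 16, 18, 19 and 21, 6 hours after the last dose. The labels record no such interval for the oil fetuses, and describe the array of dam 2 as a pool of several samples. Males left to postnatal day (PND) 35, a pubertal age, were gavaged again, with corn oil or with 500 mg/kg DBP in corn oil, and the testes were taken 6 hours later. These groups are named by the fetal and then the postnatal gavage. They are oil-oil (pups 104, 110, 114 and 120), oil-DBP (105, 111, 115 and 121), DBP-oil (123, 127, 132 and 134) and DBP-DBP (124, 128, 133 and 135). Corn oil was thus given to every animal, and testes were detunicated and snap frozen. The labels do not say which pups were littermates, so p-values measure the spread between these arrays.

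Retinol, vitamin A alcohol, circulates bound to RBP4 and enters cells through the membrane receptor STRA6. Dehydrogenases turn it into retinal, which ALDH1A enzymes oxidize to retinoic acid. CRABP proteins bind retinoic acid in the cytosol, nuclear receptors such as RARB switch genes on in its presence, and CYP26 enzymes break it down. In the testis, CYP26B1 is known for keeping retinoic acid away from fetal germ cells and so from entry into meiosis, and retinoic acid is required for spermatogonial differentiation after birth.

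Sequences just upstream of the start of 3 genes are shown because those genes carried the changes described below. They are RefSeq sequences on GRCr8, 250 bases each, read 5′ to 3′ on the strand of the gene. Capitals mark TATAAA and the AP-1 motif TGACTCA on either strand. Crabp2 lies at chr2:175714862-175719208 and its window is chr2:175714612-175714861 on the plus strand. Rbp4 lies at chr1:245306349-245313551 and its window is chr1:245313552-245313801 on the minus strand. Cyp26b1 lies at chr4:118599356-118616176 and its window is chr4:118616177-118616426 on the minus strand.
Crabp2: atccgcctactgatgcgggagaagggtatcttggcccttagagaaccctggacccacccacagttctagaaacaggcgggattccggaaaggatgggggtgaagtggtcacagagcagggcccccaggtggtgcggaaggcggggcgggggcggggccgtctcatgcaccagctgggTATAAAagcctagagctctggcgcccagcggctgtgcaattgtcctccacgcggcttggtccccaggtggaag
Rbp4: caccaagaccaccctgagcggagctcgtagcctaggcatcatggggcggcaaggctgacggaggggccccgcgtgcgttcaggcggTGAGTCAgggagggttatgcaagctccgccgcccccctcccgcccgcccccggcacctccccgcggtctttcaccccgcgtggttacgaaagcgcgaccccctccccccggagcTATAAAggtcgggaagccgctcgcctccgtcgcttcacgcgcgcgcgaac
Cyp26b1: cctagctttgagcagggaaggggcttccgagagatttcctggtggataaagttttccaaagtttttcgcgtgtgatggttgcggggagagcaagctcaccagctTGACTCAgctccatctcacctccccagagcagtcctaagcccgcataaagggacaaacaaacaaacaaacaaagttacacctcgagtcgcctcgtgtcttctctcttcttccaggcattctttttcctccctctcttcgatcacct
TATAAA starts at base -73 of Crabp2 and at base -50 of Rbp4. The AP-1 motif starts at -146 in Cyp26b1 and, as TGAGTCA, at -164 in Rbp4. A further match, at -36, lies in Crabp1. Over windows of 300 bases (250 before and 50 after the start), TATAAA on either strand was present in 14.2% of 33469 promoters and in 2 of the 8 members, and TGACTCA on either strand in 4.63% and in 3 of 8.
Rarb (chr15:10837252-11482037) is known for a retinoic acid response element of spaced direct repeats. It is shown with its repeat in capitals, from chr15:11336410-11336438, plus strand, with the first capital at base 25 counted from the transcript start of the RefSeq promoter window, which lies inside the gene's span.
Rarb: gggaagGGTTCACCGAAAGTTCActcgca
That element, the DR5 retinoic acid response element, was matched on either strand in 128 of the 33469 promoters (0.382%) and, among the 8 members, in Rarb alone. It shares no bases with the other motifs here. The motifs were chosen after the sequences had been seen, and a match describes letters, not binding.

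Values are intensities in arbitrary units, scaled by the depositors so that each array had a 2% trimmed mean between 500.135 and 500.194. Array medians ran from 164.4 to 174.5 at GD20 and from 100.8 to 114.1 at PND35. Signal of the poly-A RNAs spiked into each sample fell into 2 classes within each age. At GD20 only dams 19 and 21 had the low signal, and at PND35 all 8 fetal-oil arrays and pups 123 and 127 had it. In the array of dam 21 the sperm protamine gene Prm1 stood at 1469, against 26.5 to 116 in the other GD20 arrays. Changes are log2 fold changes of intensity + 16 with the standard error of the limma fit, and "called" means a Benjamini-Hochberg adjusted p under 0.05 over all 31042 probe sets. Being whole tissue, the arrays cannot tell fewer cells of a type from less RNA per cell.

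**Figure D1:**
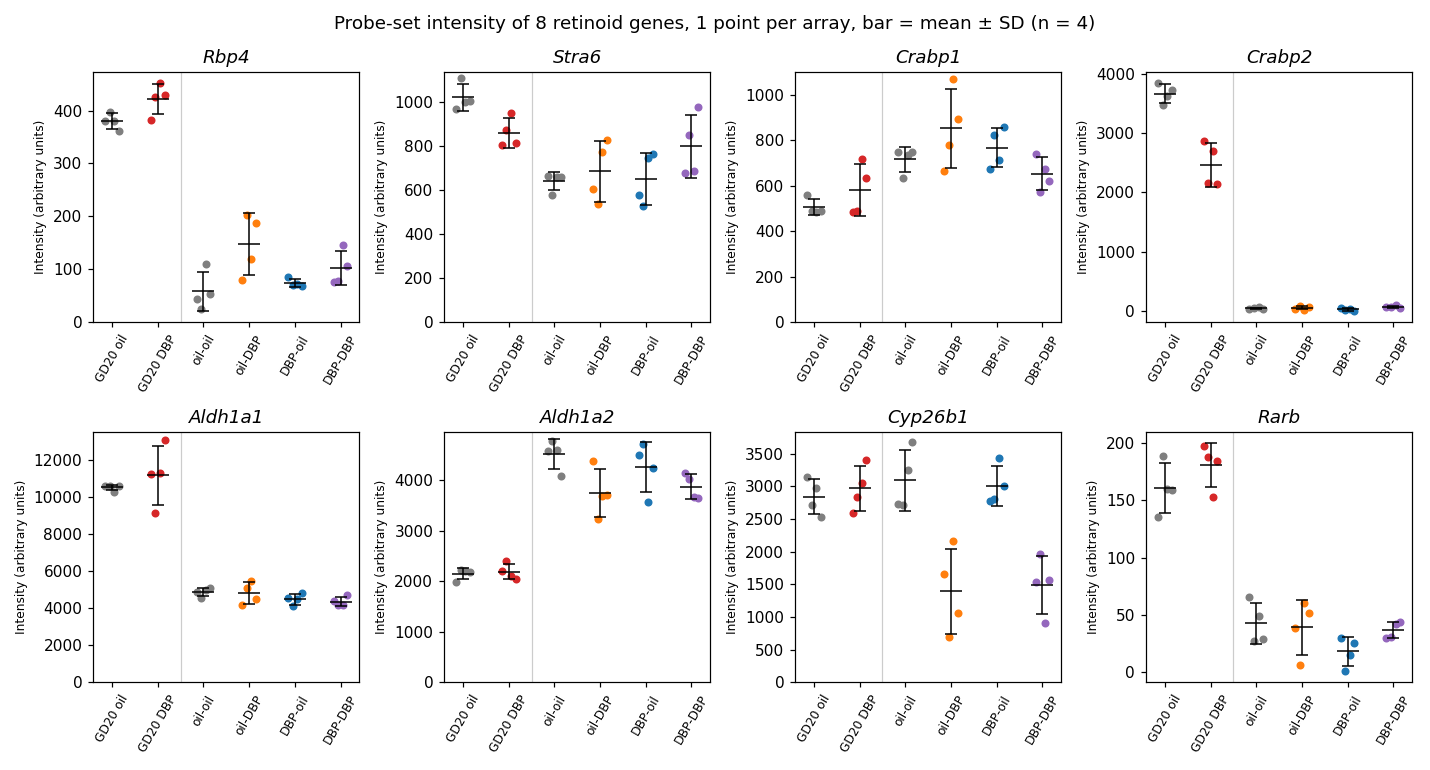
Intensity (arbitrary units, linear axes) of the probe set standing for each of the 8 genes, with 1 point per array and the mean ± SD of each group of 4. Crabp2 is at 2148 to 3840 in the 8 fetal arrays and at 96.0 or less in all 16 PND35 arrays, and Cyp26b1 is lower in both groups given DBP at PND35.

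The transport genes come first. Rbp4, whose protein carries retinol in plasma, had GD20 oil intensities of 381, 397, 380 and 361, and GD20 DBP intensities of 382, 426, 452 and 429. The ranges met and the difference was 0.14 ± 0.09 (adjusted p = 0.546). At PND35 its intensities were 44.3, 24.6, 110 and 53.8 in oil-oil and 79.1, 203, 119 and 188 in oil-DBP. All but 1 oil-oil array lay below every oil-DBP array, the exception being pup 114. Rbp4 rose 2.53-fold in mean intensity with postnatal DBP after fetal oil, from 58.3 ± 36.8 to 147 ± 58.5 (SD, n = 4), a log2 change of 1.12 ± 0.31 (adjusted p = 0.0255, limma). That call was lost without oil-oil pup 104 (1.05, adjusted p = 0.0674), oil-oil pup 110 (0.88, adjusted p = 0.102), oil-DBP pup 111 (0.97, adjusted p = 0.102) or oil-DBP pup 121 (0.98, adjusted p = 0.0964). It was also lost without the 2 Trizol arrays (1.11, adjusted p = 0.0761) and with only the 8 arrays compared in the fit (1.12, adjusted p = 0.0962). After fetal DBP the intensities were 85.7, 69.8, 72.3 and 67.6 with postnatal oil and 76.4, 78.4, 145 and 107 with postnatal DBP. These ranges overlapped and the change was 0.34 ± 0.31 (adjusted p = 0.693). The 2 responses were not shown to differ, since their difference was -0.78 ± 0.44, with a 95% confidence interval from -1.69 to 0.12 (adjusted p = 0.954).

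Stra6, the retinol uptake receptor, was measured by 5 probe sets. On the brightest, GD20 oil arrays read 970, 1110, 1002 and 1008, and GD20 DBP arrays read 806, 875, 950 and 813. Every DBP array was below every oil array, yet the change of -0.24 ± 0.08 was not called (adjusted p = 0.224). The other 4 probe sets overlapped, with changes from -0.16 to 0.09, and 4% of all probe sets were lower without overlap. At PND35 the brightest probe set spanned 526 to 980 over the 16 arrays, and its 4 pairwise changes lay between -0.01 and 0.27 with overlapping ranges. Among the others, 3 probe sets, 1385475_a_at, 1376962_at and 1385476_x_at, were higher in all oil-DBP than in all oil-oil arrays, by 0.24 ± 0.13, 0.25 ± 0.12 and 0.32 ± 0.16. None of these was called (adjusted p = 0.278, 0.220 and 0.212), and 6.49% of all probe sets were higher without overlap in that comparison. After fetal DBP only 1385475_a_at was higher without overlap, by 0.32 ± 0.13 (adjusted p = 0.211).

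**Figure D2:**
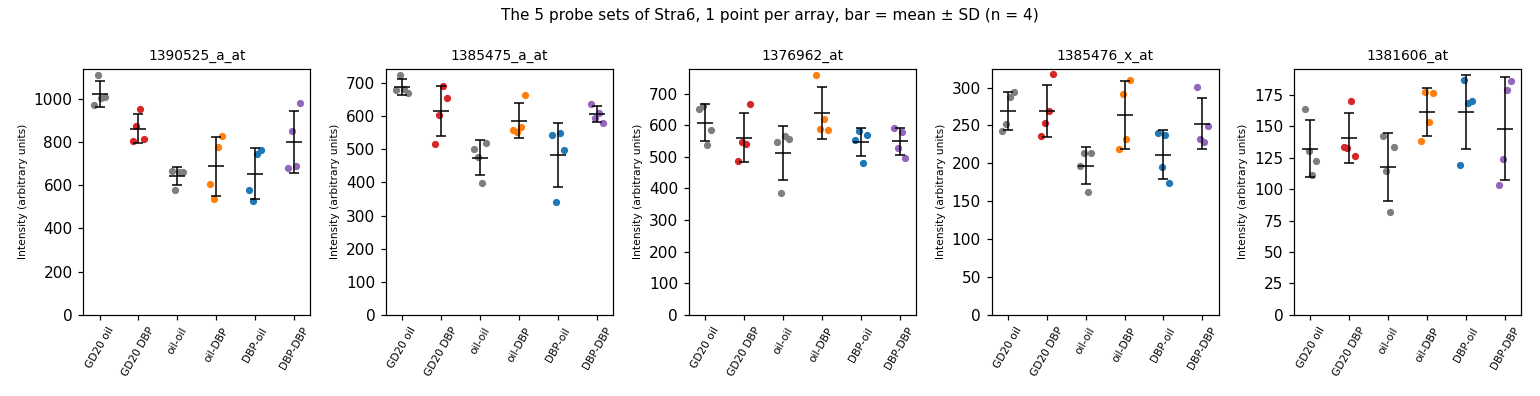
Intensity (arbitrary units, axes from 0) of the 5 Stra6 probe sets in the 6 groups, with 1 point per array and the mean ± SD (n = 4). On the brightest, 1390525_a_at, GD20 oil stands at 1022 ± 60.6 and GD20 DBP at 861 ± 67.0, while oil-DBP lies above oil-oil without overlap on the middle 3.

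Among the cytosolic binding proteins, Crabp2 was the 1 member called after fetal exposure. CRABP2 delivers retinoic acid to its nuclear receptors. Its GD20 oil intensities were 3840, 3465, 3619 and 3719, and its GD20 DBP intensities 2858, 2155, 2689 and 2148. Every exposed testis lay below every control, as for 4% of all probe sets. Mean intensity was 1.49-fold lower, at 2463 ± 366 against 3661 ± 159 (SD, n = 4), a change of -0.58 ± 0.09 (adjusted p = 0.0246, limma), and 0.441% of all probe sets were called in this comparison (0.232% called lower). The call was lost without any 1 of the 4 oil arrays (adjusted p = 0.101 without dam 2, 0.0752 without dam 3, 0.103 without dam 4 and 0.0984 without dam 5), although each change stayed between -0.61 and -0.56. It was also lost when the class of spike-in signal entered the fit (-0.56, adjusted p = 0.0847). Without dams 19 and 21, the 2 arrays of low spike-in signal, the change was -0.56 (adjusted p = 0.0481), and without dam 21 alone -0.52 (adjusted p = 0.0482).

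At PND35 Crabp2 was dim. Its intensities were 38.8, 46.1, 57.1 and 25.1 in oil-oil, 33.5, 80.7, 22.8 and 60.5 in oil-DBP, 50.3, 17.8, 29.5 and 3.34 in DBP-oil, and 59.8, 70.8, 96.0 and 55.5 in DBP-DBP. It stood between the 3.5th and the 47.9th percentile of its array. All 4 DBP-DBP arrays were above all 4 DBP-oil arrays, a difference of 1.17 ± 0.36 that was not called (adjusted p = 0.0643), and 6.06% of all probe sets were higher without overlap there. Without pup 123 of DBP-oil it was called. It was also called (1.53 ± 0.41, adjusted p = 0.0497) when pups 123 and 127, whose spike-in signal was low, were both left out. That fit kept 2 DBP-oil arrays, at 29.5 and 3.34. These were the only calls in 21 alternatives. By limma the change was 0.835 (adjusted p = 0.225) without DBP-oil pup 134, the array at 3.34. Without DBP-DBP pup 133 it was 1.043 (adjusted p = 0.212). It was 1.865 with a pseudocount of 1 and 0.596 with 64. After fetal oil the change with postnatal DBP was 0.05 ± 0.35 (adjusted p = 0.950). The difference between the 2 responses was 1.11 ± 0.50 (adjusted p = 0.954).

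Crabp1, which binds retinoic acid and is linked to its breakdown, was not called in any comparison with DBP. Its group means were 505 ± 35.4 in GD20 oil and 580 ± 115 in GD20 DBP, where dams 19 and 21 read 717 and 634 and the other exposed arrays 484 and 487. The PND35 means were 716 ± 54.0 in oil-oil, 853 ± 172 in oil-DBP, 768 ± 87.1 in DBP-oil and 653 ± 71.8 in DBP-DBP. Its changes with postnatal DBP had opposite signs, 0.16 ± 0.12 after fetal oil and -0.25 ± 0.12 after fetal DBP (adjusted p = 0.444 and 0.343). Their difference was -0.41 ± 0.17, with an interval from -0.77 to -0.06 for this gene alone and an adjusted p of 0.954 over all probe sets.

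The 2 enzymes that make retinoic acid were not called after fetal DBP. Aldh1a1, whose product oxidizes retinal and other aldehydes, read 10625, 10613, 10303 and 10585 in GD20 oil and 11237, 9124, 11291 and 13068 in GD20 DBP, which enclosed the control range. The change was 0.07 ± 0.10 (95% confidence interval -0.14 to 0.29, adjusted p = 0.820). Aldh1a2, whose product is the main retinal oxidase of the embryo, read 1985, 2225, 2202 and 2196 in oil and 2202, 2402, 2106 and 2053 in DBP. These ranges overlapped too, with a change of 0.03 ± 0.07 (interval -0.12 to 0.18, adjusted p = 0.923).

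At PND35 Aldh1a1 spanned 4116 to 5487 over the 16 arrays, with changes from -0.14 to -0.06 in the 4 comparisons of groups and none called. Aldh1a2 read 4593, 4782, 4606 and 4088 in oil-oil and 4390, 3227, 3696 and 3705 in oil-DBP. All but 1 of the oil-DBP arrays lay below every oil-oil array. Its change of -0.34 ± 0.11 was not called (adjusted p = 0.0575). It was called in 5 of 21 alternatives. These were the filter on dim probe sets (adjusted p = 0.0369), the spike-in class in the fit (0.0357) and adjacent pup numbers as a replicate block (0.0363). The others left out oil-DBP pup 105 (0.00851) or oil-oil pup 120 (0.0494). Over all alternatives adjusted p by limma ran from 0.00851 to 0.211. After fetal DBP the change was -0.15 ± 0.11 (adjusted p = 0.588).

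Cyp26b1, which codes for the enzyme that inactivates retinoic acid, was the member with the clearest response to postnatal DBP. Its oil-oil intensities were 2726, 2712, 3246 and 3680 and its oil-DBP intensities 1663, 686, 2167 and 1063. No oil-DBP array reached the lowest control, a separation seen downward in 4.3% of all probe sets. The mean was 2.22-fold lower, at 1395 ± 653 against 3091 ± 465 (SD, n = 4), a change of -1.32 ± 0.26 (adjusted p = 0.00216, limma). Together with Rbp4 this made 2 of 8 genes called, 1 higher and 1 lower, where 8.92% of all probe sets were called (4.77% higher, 4.15% lower). All 8 arrays of that comparison were of the low spike-in class.

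The fall was seen again in the rats exposed before birth. DBP-oil arrays read 2768, 2813, 3432 and 3009, and DBP-DBP arrays read 1534, 1971, 900 and 1569, again with no overlap (5.93% of all probe sets were lower without overlap). The mean was 2.01-fold lower, at 1493 ± 442 against 3006 ± 303, a change of -1.07 ± 0.26 (adjusted p = 0.0153). It was the 1 gene of 8 called, where 5.23% of all probe sets were called (3.64% higher, 1.58% lower). The call was lost without DBP-oil pup 132 (-1.01, adjusted p = 0.0521) or DBP-DBP pup 133 (-0.84, adjusted p = 0.0832). It was also lost without the mean trend (-1.07, adjusted p = 0.0726) and when the class of spike-in signal entered the fit (-1.14, adjusted p = 0.0738), the sign being negative in all 22 alternatives. With the low-class DBP-oil pups 123 and 127 left out, the change was -1.14 ± 0.34 (adjusted p = 0.0973). That fit left 2 DBP-oil arrays and kept the fetal-oil arrays, which are of the low class. The difference between the 2 responses was 0.25 ± 0.37, with an interval from -0.52 to 1.02.

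The second probe set, 1376667_at, gave the same directions. It read 526, 522, 473 and 502 in oil-oil and 315, 213, 299 and 158 in oil-DBP, a fall of 1.10 on the log2 scale (SE 0.23, adjusted p = 0.00307). It read 347, 565, 471 and 476 in DBP-oil and 244, 245, 111 and 145 in DBP-DBP, a fall of 1.32 (SE 0.23, adjusted p = 6.8e-04). Neither pair of groups overlapped. In the fetus Cyp26b1 was not called: the brighter probe set read 3141, 2715, 2972 and 2530 in oil and 2590, 2831, 3047 and 3405 in DBP, a change of 0.06 ± 0.09 (adjusted p = 0.845).

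**Figure D3:**
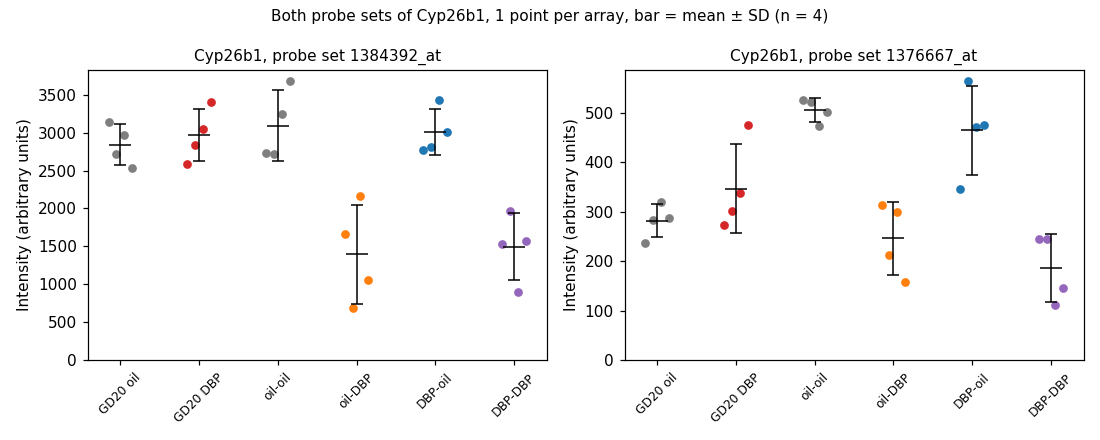
Intensity (arbitrary units, axes from 0) of both Cyp26b1 probe sets in the 6 groups, with 1 point per array and the mean ± SD (n = 4). Both are lower in oil-DBP and DBP-DBP than in oil-oil and DBP-oil without overlap, and they part in the fetus, where GD20 oil lies below oil-oil on 1376667_at and overlaps it on 1384392_at.

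Rarb, a retinoic acid receptor that is itself a target of retinoic acid, read 136, 189, 160 and 159 in GD20 oil and 197, 187, 153 and 185 in GD20 DBP, a change of 0.15 ± 0.15 (adjusted p = 0.729). At PND35 it was dim, between the 0.5th and 40.2nd percentile of its array. It read 65.7, 27.9, 48.9 and 29.3 in oil-oil, 38.4, 6.34, 60.7 and 51.8 in oil-DBP, 30.4, 1.35, 15.5 and 26.0 in DBP-oil, and 30.4, 31.0, 42.6 and 43.8 in DBP-DBP. No comparison among these groups was called. DBP-oil against oil-oil gave -0.84 ± 0.37 (adjusted p = 0.625, and from -1.64 to -0.39 over the alternatives), and the interaction 0.94 ± 0.53 (adjusted p = 0.954).

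Fetal exposure left no called difference in any member at PND35. Before postnatal oil the 8 changes ran from -0.84 (Rarb) to 0.38 (Rbp4), with a median of -0.08 against -0.01 over all probe sets, and 0.00322% of probe sets (1 in all) were called. Before postnatal DBP they ran from -0.41 (Rbp4) to 0.50 (Crabp2), with a median of 0.09 against 0.01. By limma, 0% of probe sets were called there, while 2791 had an unadjusted p under 0.05. In the latter comparison the spike-in class and the fetal exposure cannot be told apart. For the interaction of the 2 exposures 0% were called and 1466 probe sets had an unadjusted p under 0.05. The 2 comparisons of postnatal DBP had member medians of -0.04 and 0.10, against -0.08 and -0.06 over all probe sets, and the fetal one at GD20 0.07 against -0.01. Comparisons that share a control group, such as those against oil-oil, are not independent.

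**Figure D4:**
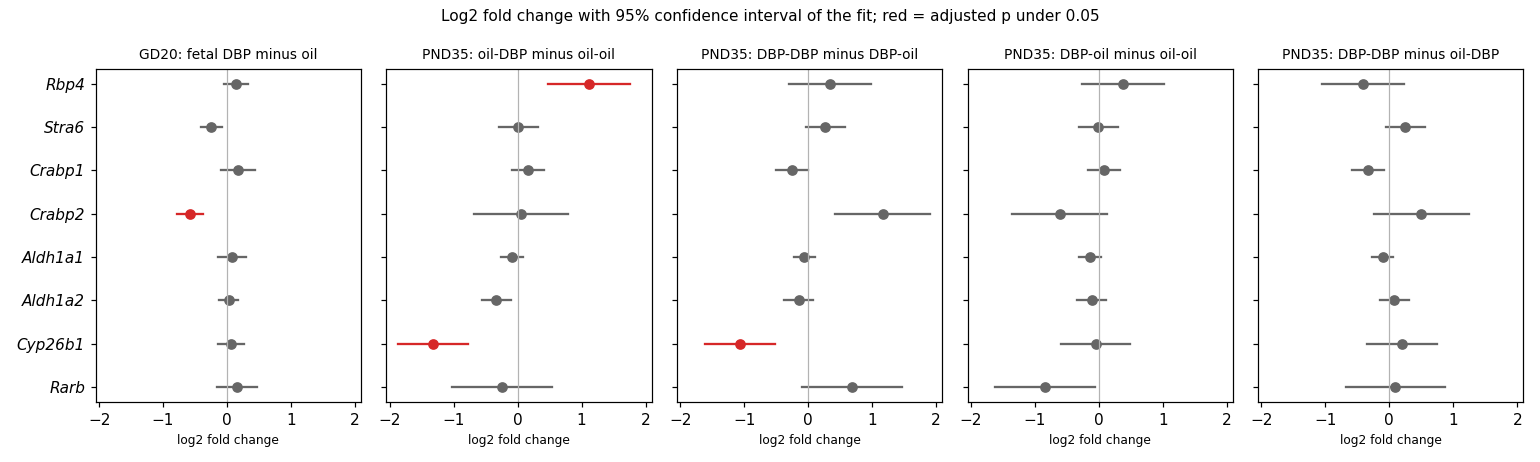
Log2 fold change with the 95% confidence interval of the fit for the 8 genes in 5 comparisons with DBP, red where called. Crabp2 is lower at GD20 (-0.58), Rbp4 higher (1.12) and Cyp26b1 lower (-1.32) after fetal oil and postnatal DBP, and Cyp26b1 lower (-1.07) after both exposures.

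The largest differences among members lay between the ages. In control testes 7 of 8 genes were called, 2 higher and 5 lower at PND35, but 64% of all probe sets were called (20.7% higher, 43.3% lower), so the count itself says little. Crabp2 fell from 3661 ± 159 at GD20 to 41.8 ± 13.4 at PND35 (SD, n = 4), a change of -6.02 ± 0.15 (adjusted p = 2.91e-13, limma). The PND35 signal lay between the 24.3rd and 38.1st percentile of its arrays, and the change was -6.48 with a pseudocount of 1 and -5.15 with 64, so no exact fold is given. Rbp4 fell by 2.54 on the log2 scale (SE 0.27, adjusted p = 1.47e-06) and Rarb by 1.63 (SE 0.25, adjusted p = 4.14e-05). Their oil-oil intensities lay between the 23.5th and 51st percentile of the arrays, and with the same pseudocounts their changes ran from -2.88 to -1.90 and from -1.96 to -1.08. Aldh1a1 was 2.16-fold lower in mean intensity (-1.11 ± 0.06, adjusted p = 5.9e-10). Aldh1a2 moved the other way from Aldh1a1 and was 2.1-fold higher at PND35 (1.06 ± 0.07, adjusted p = 4.72e-09). Crabp1 was 1.42-fold higher (0.49 ± 0.09, adjusted p = 2.15e-04). For these 6 genes no control array of 1 age reached the range of the other, as for 60.1% of all probe sets.

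Stra6 and Cyp26b1 depended on the scale or the probe set. Stra6 was lower at PND35 on its brightest probe set (-0.66 ± 0.08, adjusted p = 4.2e-06) and on 2 of the other 4, but with arrays centred on their medians the change was -0.004 (adjusted p = 0.971). Cyp26b1 did not pass on its brightest probe set (0.12 ± 0.10, adjusted p = 0.342), was called higher on the other (0.81 ± 0.11, adjusted p = 1.29e-05), and on the brightest moved from -0.19 after quantile normalization to 0.77 after median centring. The median over all probe sets was -0.32 with arrays as deposited, -0.02 with centring on the 75th percentile, 0.003 with quantile normalization and 0.34 with median centring, and the member median as deposited was -0.88. The share of calls that were higher moved with it, at 32.3%, 44.9%, 46.2% and 62.2%. The other 6 genes kept direction and call under each of these scalings, but their sizes moved. From arrays as deposited to median centring, Crabp1 went from 0.49 to 1.14, Aldh1a2 from 1.06 to 1.72, Aldh1a1 from -1.11 to -0.46, Rarb from -1.63 to -0.97, Rbp4 from -2.54 to -1.88 and Crabp2 from -6.02 to -5.37. Quantile normalization gave 0.76 for Aldh1a2 and -1.48 for Aldh1a1. Fetal RNA was prepared with Trizol and then a micro kit and PND35 RNA with another kit except in pup 104 (oil-oil) and pup 115 (oil-DBP), so age and extraction cannot be told apart, 1 oil-oil array being too few to separate them.

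Markers of spermatocytes and spermatids rose between the ages beside these changes, while those of gonocytes and spermatogonia were mixed. Of 5 gonocyte and spermatogonial markers 2 were called higher and 2 lower (summed intensity 3263 to 3530.5 in GD20 oil and 3249 to 3671 in oil-oil). All 6 spermatocyte markers with a probe set were called higher, their summed intensity being 1864 to 2405 in GD20 oil and 46161 to 55117 in oil-oil, and all 6 spermatid markers, from 317 to 364 up to 84378 to 111184. Of the Leydig markers 7 of 8 were lower and 1 higher (56628 to 60080 down to 16128 to 22716), of the Sertoli markers 6 of 8 lower and 2 higher (32648 to 34219 and 35347 to 42479). Of the peritubular myoid markers 5 of 6 were lower (15711 to 17471 down to 4523 to 4944). All 4 endothelial markers (2143 to 2396 down to 435 to 548) and all 3 blood markers (28411 to 32104 down to 9462 to 11948) were lower. Of 6 macrophage markers 1 was higher and 2 lower (948 to 980 and 2705 to 3756). These calls are with arrays as deposited, where 20.7% of all probe sets were called higher and 43.3% lower. The part of the markers in the members' differences was not tested.

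Ordered by group mean of the probe set standing for each gene, with arrays as deposited, the members fell into 3 patterns. Rbp4, Crabp2, Aldh1a1, Rarb and Stra6 were highest in the 2 fetal groups. Rbp4, Aldh1a1 and Rarb had fetal groups that overlapped with each other and not with the next group, and all 4 PND35 groups overlapping their neighbours. In Crabp2 the 2 fetal groups were also apart from each other, and in Stra6 GD20 oil stood apart while GD20 DBP (806 to 950) overlapped DBP-DBP (680 to 980). The place of Stra6 did not hold on all its probe sets. On 1376962_at oil-DBP averaged 638 and GD20 oil 608, and on 1381606_at oil-DBP and DBP-oil averaged 161, GD20 oil 132 and GD20 DBP 141. Aldh1a2 ran from oil-oil (4517 ± 299) through DBP-oil, DBP-DBP and oil-DBP (3754 ± 479), neighbours overlapping, to a gap above GD20 DBP (2191 ± 154) and GD20 oil (2152 ± 112). Crabp1 had no gap between neighbours. In Cyp26b1 the 4 groups without postnatal DBP had means from 2840 to 3091 and overlapped. A gap separated them from DBP-DBP and oil-DBP. This gap was absent on the dimmer Cyp26b1 probe set. There GD20 oil (237 to 320) and GD20 DBP (273 to 476) both overlapped oil-DBP (158 to 315). On that probe set GD20 oil lay below oil-oil (473 to 526) without overlap.

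Genes with the closest pattern over the 24 arrays, by root mean square difference of centred log2 values, were found for the 5 members whose group means varied enough. Cyp26b1 lay nearest to Dkk3 (0.249) and Tulp3 (0.256). Dkk3 averaged 574 in oil-oil, 271 in oil-DBP, 495 in DBP-oil and 238 in DBP-DBP, and Tulp3 1112, 551, 1148 and 507. Rbp4 lay nearest to Tpbg (0.22) and Vegfc (0.288), where Vegfc averaged 440 in GD20 oil, 57.6 in oil-oil and 138 in oil-DBP. Crabp2 lay nearest to Cdh11 (0.526) and Pcdh18 (0.538), Aldh1a1 to Ppib (0.084) and Cd81 (0.093), and Rarb to Abcg3l1 (0.367) and Pip4k2a (0.372). Cdh11 averaged 6565 in GD20 oil and 7092 in GD20 DBP.

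Of 62 further retinoid genes listed by role, 49 had a probe set annotated with that symbol alone. After fetal DBP 0 were called at GD20. By limma the smallest p-values were those of Aldh1a3, another retinal oxidase (-0.48 ± 0.13, adjusted p = 0.169), the coactivator Ncoa1 (-0.31 ± 0.09, adjusted p = 0.207), Bhlhe40 (-0.49 ± 0.16, adjusted p = 0.252) and Rarres1 (0.33 ± 0.13, adjusted p = 0.346). The median of the 49 was 0.01. Over all probe sets, 3652 had an unadjusted p under 0.05.

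After postnatal DBP and fetal oil, 4 of the 49 were called higher and 1 lower, where 4.77% of all probe sets were called higher and 4.15% lower. Bhlhe40, a transcriptional repressor inducible by retinoic acid among other signals, rose from 44.1 ± 11.1 to 340 ± 46.5 (2.51 ± 0.21). Rai14, an actin-binding protein, rose from 212 ± 19.8 to 745 ± 287 (1.60 ± 0.20), Tgm2, a transglutaminase, from 1329 ± 93.5 to 2012 ± 199 (0.53 ± 0.09), and Nrip1, a nuclear receptor corepressor, from 225 ± 49.9 to 403 ± 92.1 (0.73 ± 0.18). Nr2f2, an orphan nuclear receptor of interstitial cells, fell from 1058 ± 12.6 to 582 ± 217 (-0.99 ± 0.19). The adjusted p-values (limma) ran from 5.46e-08 for Bhlhe40 to 0.0143 for Nrip1, and no pair of groups overlapped (6.49% of all probe sets were higher and 4.3% lower without overlap). The median of the 49 was -0.10, against -0.08 over all probe sets. No storage, interconversion, carrier or degradation gene of the lists was called.

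After fetal DBP the same 5 genes were called in the same directions, with changes of 2.73 ± 0.21 for Bhlhe40, 1.48 ± 0.20 for Rai14, 0.52 ± 0.09 for Tgm2, 0.73 ± 0.18 for Nrip1 and -0.80 ± 0.19 for Nr2f2. Each of the 5 kept its call in both comparisons under every scaling. Of the 9 listed genes known to answer to retinoic acid, 3 were called higher in each comparison (Bhlhe40, Rai14 and Tgm2) and none lower. Over all probe sets, 4.77% and 3.64% were called higher. That list was drawn up with earlier results of these data known, so its share is descriptive only. It leaves out all the members, among them Rarb, itself a target of retinoic acid. Cyp26b1, likewise left out, was called lower in both comparisons (-1.32 ± 0.26 and -1.07 ± 0.26). By limma Rarb was called in neither comparison (-0.25 ± 0.37, adjusted p = 0.756, and 0.69 ± 0.37, adjusted p = 0.419). Fetal exposure before either postnatal gavage and the interaction called 0 of the 49.

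Postnatal DBP also moved cell-type markers, beside Cyp26b1, Rbp4 and these genes. Of 6 peritubular myoid markers 4 were called higher after fetal oil (summed intensity 4523 to 4944 in oil-oil, 6885 to 7920 in oil-DBP) and 5 after fetal DBP (4054 to 5223 and 6698 to 7411). Of 8 Leydig markers 1 was higher and 4 lower after fetal oil (16128 to 22716 and 7514 to 16108), and 2 lower after fetal DBP (13981 to 19056 and 12162 to 14755). Of 8 Sertoli markers 2 were higher and 1 lower after fetal oil (35347 to 42479 and 34487 to 45934), and 1 lower after fetal DBP (37198 to 40619 and 34728 to 38669). Of 6 spermatid markers, 4 were lower after fetal oil (84378 to 111184 and 68178 to 101673) and 0 after fetal DBP. After fetal oil, of 6 macrophage markers Cd14 was higher and Aif1 lower. The endothelial marker Tek (of 4) and the blood marker Alas2 (of 3) were lower. After fetal DBP, Cd14 and the endothelial marker Kdr were higher, and the epididymal marker Pax8 (of 3) was lower. No marker of the remaining lists was called in either comparison. Over all probe sets 8.92% were called after fetal oil and 5.23% after fetal DBP. The part of these markers in the members' changes was not tested. At GD20 none of the 68 markers in 13 lists was called, where 0.441% of all probe sets were called. Summed intensities were higher in GD20 DBP without overlap for peritubular myoid markers (15711 to 17471 in oil, 17717 to 21389 in DBP) and macrophage markers (948 to 980 and 1044 to 1160). The sums of the other lists overlapped, those of spermatids being 317 to 364 in oil and 299 to 3845 in DBP. Their part in the change of Crabp2 was not tested.

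Between the ages, 10 of the 49 further genes were called higher and 23 lower at PND35 with arrays as deposited, shares close to those over all probe sets (20.7% higher and 43.3% lower). The counts moved to 15 higher and 20 lower with centring on the 75th percentile, 15 and 18 with quantile normalization, and 20 and 15 with median centring, which turned the balance. The smallest p-values belonged to Nr2f2 (6428 ± 77.7 at GD20 and 1058 ± 12.6 at PND35, -2.59 ± 0.05), the retinal reductase Rdh11 (437 ± 29.6 and 4559 ± 560, 3.33 ± 0.09) and the lipase Pnpla2 (220 ± 13.9 and 2047 ± 176, 3.13 ± 0.09). Next came Rai14 (-2.97 ± 0.09), the homeobox gene Meis1 (-3.19 ± 0.10) and Dgat1, which esterifies retinol among other alcohols (1.93 ± 0.07). Of 6 storage genes 4 were higher and 1 lower, of 13 interconversion genes 3 higher and 4 lower, and of 12 receptors and coregulators 0 higher and 9 lower, with arrays as deposited. Of 9 genes that answer to retinoic acid 0 were higher and 8 lower, and both degradation genes other than Cyp26b1, Cyp26a1 and Cyp2s1, were higher. With median centring 25 of the 33 calls kept their direction, and Rara, a receptor, was called in the opposite one. Of the 9 receptor genes 5 then stayed lower, and of the 8 responsive genes 7. All 10 higher calls held under all scalings. Among them Rdh5 was dim, at 6.17 ± 3.71 in GD20 oil and 25.8 ± 16.8 in oil-oil, with overlapping ranges. Lrat stood at 29.6 ± 15.9 and 57.6 ± 7.96. Some lower calls also rested on dim oil-oil values, such as those of Nr2f1 (17.3), Rdh12 (19.5) and Rxra (26.0).

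**Figure D5:**
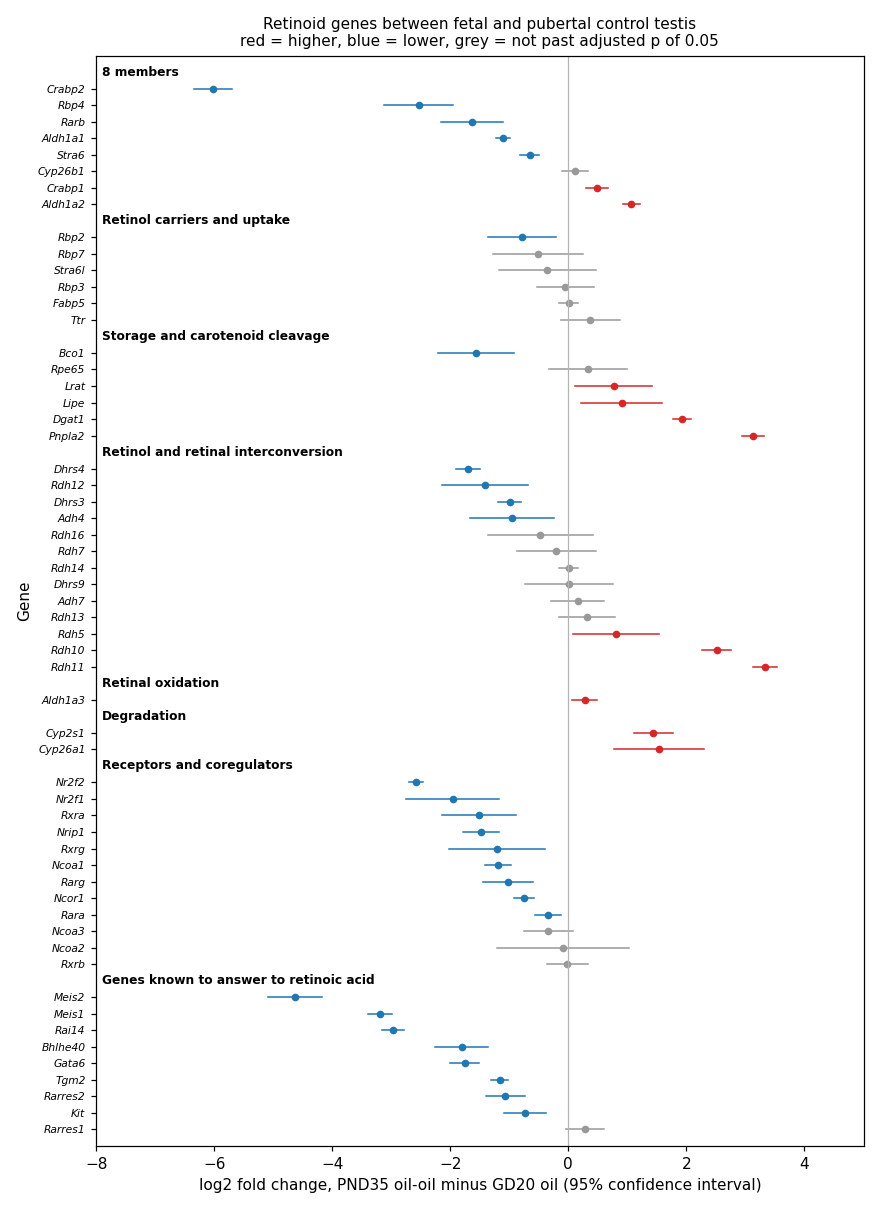
Log2 fold change (PND35 oil-oil minus GD20 oil) with the 95% confidence interval for the 8 members and 49 further retinoid genes by role, arrays as deposited, red higher and blue lower where called. Crabp2 is farthest left (-6.02) and Rdh11 farthest right (3.33), and 9 of 12 receptors and coregulators are lower.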

How the data were processed

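Whole-testis RNA was biotin-labelled and hybridized to Affymetrix rat arrays, and intensities were obtained with GCOS 1.0, per the submitters' processing notes. The deposited values are intensity values on a linear scale, which the authors scaled to a common mean on each array. The summary algorithm and detection calls are not given in the sources used here. Of 31099 probe sets, 57 manufacturer controls were left out, and of the other 31042, 20826 carry 1 gene symbol, 436 several and 9780 none. RNA integrity numbers were 8.2 to 8.9, and 12.1% to 19.4% of values per array were under 16. Precision is limited by 4 arrays in each group.

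From these, log2(intensity + 16) was fitted with limma 3.58.1 in R 4.3.3 (lmFit, eBayes with a mean trend, two-sided, Benjamini-Hochberg over 31042 probe sets, threshold 0.05) in 7 comparisons. The 8 GD20 arrays and the 8 control arrays of both ages were used as deposited, and the 16 PND35 arrays were centred on their medians in 1 fit. The fit was run on simulated data with independent noise and changes in brighter probe sets only. That run does not cover dim genes, spike-in class or extraction. Every member is named. Of the other listed retinoid genes, up to 6 called genes are named in order of p, or the 4 with the smallest p where none was called. Likeness was searched for members whose group means had an SD of at least 0.5 (log2). The members and lists were chosen with earlier results of these data known. Adjacent pup numbers were checked as pairs: the correlations of their deviations from the group means lay between -0.044 and 0.058 over 8 pairs. They were not taken as pairs in the main fit. A correlation over all probe sets cannot show whether single genes share a litter effect, so the block was run as an alternative. After fetal oil it called 3114 probe sets, against 2770 in the main fit. Alternatives covered scaling, pseudocount (1 and 64), a filter on dim probe sets (64 or more in at least 4 arrays), the trend, extraction, spike-in class, a block and leaving out arrays.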

Additional observations from a re-analysis of the deposited data

Results flagged for a closer look

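In 5 of 48 groups of 4 arrays tested over the 8 genes, 1 array stood apart from the other three by Dixon's criterion. Chance alone flags about 1 group in 20. All 5 lie in the corn oil controls. Crabp1 read 558 in GD20 oil dam 2, against 486 to 489 in the other arrays of that group. Aldh1a2 read 1985 in the same array, described as a pool, against 2196 to 2225. Aldh1a1 read 10303 in GD20 oil dam 4, against 10585 to 10625. In oil-oil pup 110, Crabp1 read 636 against 735 to 747, and Stra6 read 580 against 662 to 665.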

How the results depend on the processing

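Of 56 changes (8 genes in 7 comparisons), 11 were called. All 11 kept their sign in every alternative run and 7 kept their call. Of the 45 not called, 42 were called in no alternative. At GD20 the count of called members, 1, went to 0 without the mean trend and to 0 with the class of spike-in signal in the fit, and ran from 0 to 1 with arrays left out in turn. Crabp2 then had an adjusted p of 0.200 without the trend. For postnatal DBP after fetal oil the count, 2, went to 1 without the 2 Trizol arrays and to 1 with only the 8 arrays compared, ran from 1 to 3 with arrays left out, and was 3 with the replicate block of adjacent pup numbers, where Aldh1a2 joined. The block changed no other member's call. With the dim filter and with the spike-in class in the fit the count was also 3, again with Aldh1a2. Cyp26b1 was called in all 21 alternatives there (-1.64 to -1.01) and Rbp4 in 15 of 21 (0.74 to 1.41). After fetal DBP the count, 1, went to 0 without the trend and to 0 with the spike-in class, and ran from 0 to 2 with arrays left out. Comparing only the high spike-in class, an alternative added after seeing the data that left 2 DBP-oil arrays, 1 was called, Crabp2 in place of Cyp26b1. No member was called for fetal exposure at PND35 or for the interaction under any alternative. Between the ages the count was 7 or 8. The cause of these shifts was not tested. Over all probe sets, calls at GD20 numbered 137, 10 without the trend, and from 29 to 175 with arrays left out; after fetal oil 2770, 1541 with only the 8 arrays, and from 1597 (without pup 111, 69% of them higher) to 4607 (without pup 105, 40.9% higher), with 1716 without pup 121; after fetal DBP 1623, 935 with the spike-in class, and from 1097 to 1519 with arrays left out. The share of calls that were higher moved from 47.4% to 61.3% (75th percentile) and 67.8% (median centring) at GD20, and from 53.5% to 69.2% (as deposited) after fetal oil. The dim filter tested 6 of 8 members at PND35, since Crabp2 and Rarb were too dim to pass it.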
